A study of Mus musculus with 40 samples.

Results

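The genes of cholesterol and fatty acid synthesis were examined in mpkCCD cells in which members of the CREB family of transcription factors had been knocked out. Membership was set by symbol: 38 genes of the 55414 in the deposited table, all of them found. They comprise 5 genes for the SREBP factors and the proteins that hold or release them, 16 enzymes of cholesterol synthesis, 1 sterol transport gene, 10 genes of fatty acid synthesis, elongation and desaturation, and 6 genes of glycerolipid synthesis. All 38 passed the filter on low values, a mean of at least 1 TPM, in each of the 3 comparisons made.

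mpkCCD is an immortalized mouse cell line of the kidney collecting duct. Every group was grown on permeable supports and received 0.1 nM dDAVP, a vasopressin analogue, for 72 hours. During those hours the medium held dexamethasone, selenite and transferrin, and no serum is listed for it. Of the 22 libraries, 11 came from unmodified control clones (genotype WT). The label ATF1-KO covers 5 libraries, ATF1/CREB1-KO covers 3, and ATF1/CREB1/CREM-KO covers 3, and no other allele or agent is named. The 18 rescue samples were not analysed here. The labels number the libraries from 1 to 22, and 3 sets were read from that order, since the sample titles name no set. They are control clones 1 to 5 with ATF1-KO (set 1), 6 to 8 with ATF1/CREB1-KO (set 2) and 9 to 11 with ATF1/CREB1/CREM-KO (set 3). Each knockout label was compared with the control clones of its own set. The labels do not say whether replicates of a knockout label were separate clones or cultures, so the p-values measure only the spread between these libraries.

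Cells make cholesterol from acetyl-CoA through mevalonate, isoprenoid diphosphates, squalene and lanosterol, and make fatty acids from the same acetyl-CoA through malonyl-CoA. Both routes are switched on by SREBPs, transcription factors made as precursors in the membrane of the endoplasmic reticulum. When sterols are plentiful, INSIG proteins hold SCAP, the escort of SREBP, in place. When sterols are scarce, SCAP carries SREBP to the Golgi, where proteases release the part that enters the nucleus and binds sterol regulatory elements, often beside boxes for the factor NF-Y. CREB1, ATF1 and CREM bind the cAMP response element and act in the cAMP pathway that vasopressin uses in collecting duct principal cells. The activity of SREBP is set by this processing, which RNA levels do not measure.

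Values are TPM, which correct for transcript length, so levels may be compared between genes. Read depth is unknown, and between 17296 and 20703 genes were above 0 per library. The 6 libraries of set 2 stood apart in composition. Ribosomal protein genes took 7.05% to 15.1% of their TPM against 2.61% to 4.03% in the other 16, and the 38 genes summed to between 1020 and 2020 TPM against 4120 to 5370, which is why levels are not compared across sets by test. The RNA of the targeted genes did not follow every label. Atf1 was at 26.6 TPM in ATF1-KO against 42.2 in its control clones (adjusted p = 0.555) and Creb1 fell from 37.7 to 18.7 TPM in ATF1/CREB1/CREM-KO (adjusted p = 0.00305), where Atf1 was at 32.4 against 40.1 (adjusted p = 0.304) and Crem at 30.5 against 22.7. In ATF1/CREB1-KO, Atf1 was at 19.0 TPM against 24.5 (adjusted p = 0.635) and Creb1 at 3.39 against 5.55 (adjusted p = 0.471), neither called, and Crem, which that label does not name, reached 46.5 TPM in replicate 3. RNA can persist from a disrupted gene, so these levels do not settle the labels, and the groups are named by label throughout. Of 12 principal cell markers, 8 to 10 had a mean of at least 1 TPM in each group, although the one that encodes the water channel aquaporin-2, Aqp2, fell to 15.5 TPM in ATF1/CREB1/CREM-KO from 1520 (adjusted p = 0.00086). Markers of adipocytes (0 of 5 at 1 TPM, at most 0.92 TPM summed) and fibroblasts (0 of 6, at most 1.95 TPM) were at or near 0.

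In control clones 1 to 5 and 9 to 11 the desaturase genes Scd2 and Fads2 led the list. Scd2, a stearoyl-CoA desaturase that puts the first double bond into saturated fatty acids, had a mean of 593 ± 49.7 TPM in control clones 1 to 5 (SD, n = 5). Fads2 followed with 509 ± 52.0, Fdps, the farnesyl diphosphate synthase, with 350.0 ± 59.5 and Fads1 with 328 ± 24 TPM (SD, n = 5). FADS1 and FADS2 are the desaturases that make polyunsaturated fatty acids. The ranges of Scd2 and Fads2 overlapped, as did those of Fdps and Fads1, so the order within each pair is not resolved. The lowest means were those of Acaca (acetyl-CoA carboxylase) at 9.98 ± 1.73, Hsd17b7 (a sterol reductase) at 11.9 ± 2.21 and Scd1 at 14.4 ± 2.95 TPM (SD, n = 5), and the ranges of these 3 genes overlapped. Scd1 and Scd2 are similar in sequence, and how reads were shared between them is not stated.

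**Figure D1:**
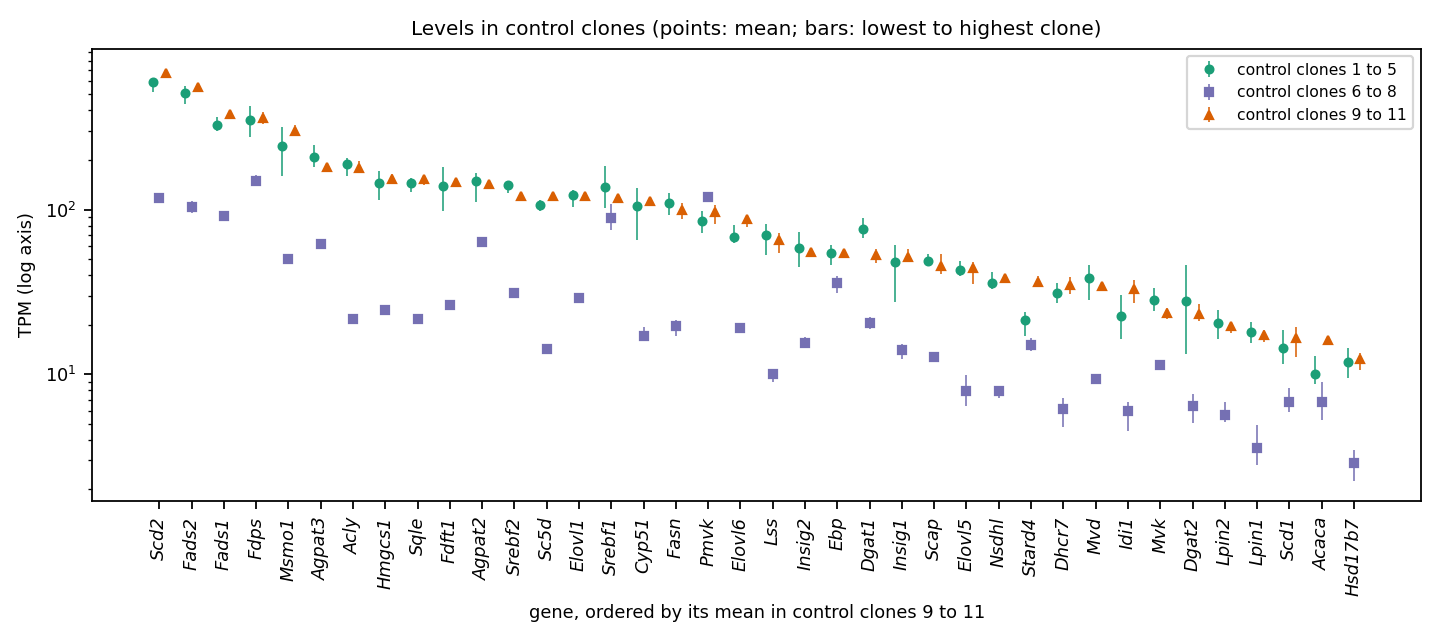
Mean TPM (log axis) of the 38 genes in control clones 1 to 5, 6 to 8 and 9 to 11, with bars from the lowest to the highest clone and genes ordered by their mean in control clones 9 to 11. Circles (set 1) and triangles (set 3) run close together, with Scd2 and Fads2 on top in both, while the squares of set 2 lie lower for most genes but not for Pmvk.

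Control clones also varied among themselves. Dgat2, an enzyme of the last step of triglyceride synthesis, ranged from 13.3 to 46.1 TPM over control clones 1 to 5, a coefficient of variation of 46.9%. The sterol methyl oxidase gene Msmo1 varied by 31.9%, the isoprenoid isomerase gene Idi1 by 30.2% and Insig1 by 28.4%. Control clone 1 was the lowest of the 5 for 11 of the 16 cholesterol synthesis genes. In set 2 the leading genes were Fdps at 150.0 ± 10.0, Pmvk (phosphomevalonate kinase) at 120.0 ± 3.72 and Scd2 at 118 ± 2.34 TPM (SD, n = 3). Pmvk was thus higher there than its 85.4 TPM in control clones 1 to 5, although most of the list was lower.

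The libraries labelled ATF1/CREB1/CREM-KO held the members that passed the test. In limma with Benjamini-Hochberg adjustment, 5 of the 38 genes were called at an adjusted p under 0.05, beside 9.17% of the 13258 genes tested, and all 5 were lower, beside 5.26% of all genes called lower. They were Elovl6, Sc5d, Stard4, Cyp51 and Hmgcs1, at 49.6% to 72.7% of their control means. The 5 members are 13.2% of the list, and 17 (44.7%) had an unadjusted p under 0.05 against 27.0% of all genes. The median of the list was close to that of all genes: 18 genes had a log2 change above 0 and 20 below, the share above 0 was 47.4% against 44.5% of all genes, and the median was -0.07 against -0.05. The ranges of the 2 groups did not overlap for 10 members that were higher (26.3%, against 14.5% of all genes) and 11 that were lower (28.9%, against 20.2%). Fewer cells expressing a gene and less of its RNA per cell cannot be told apart in these bulk libraries.

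**Figure D2:**
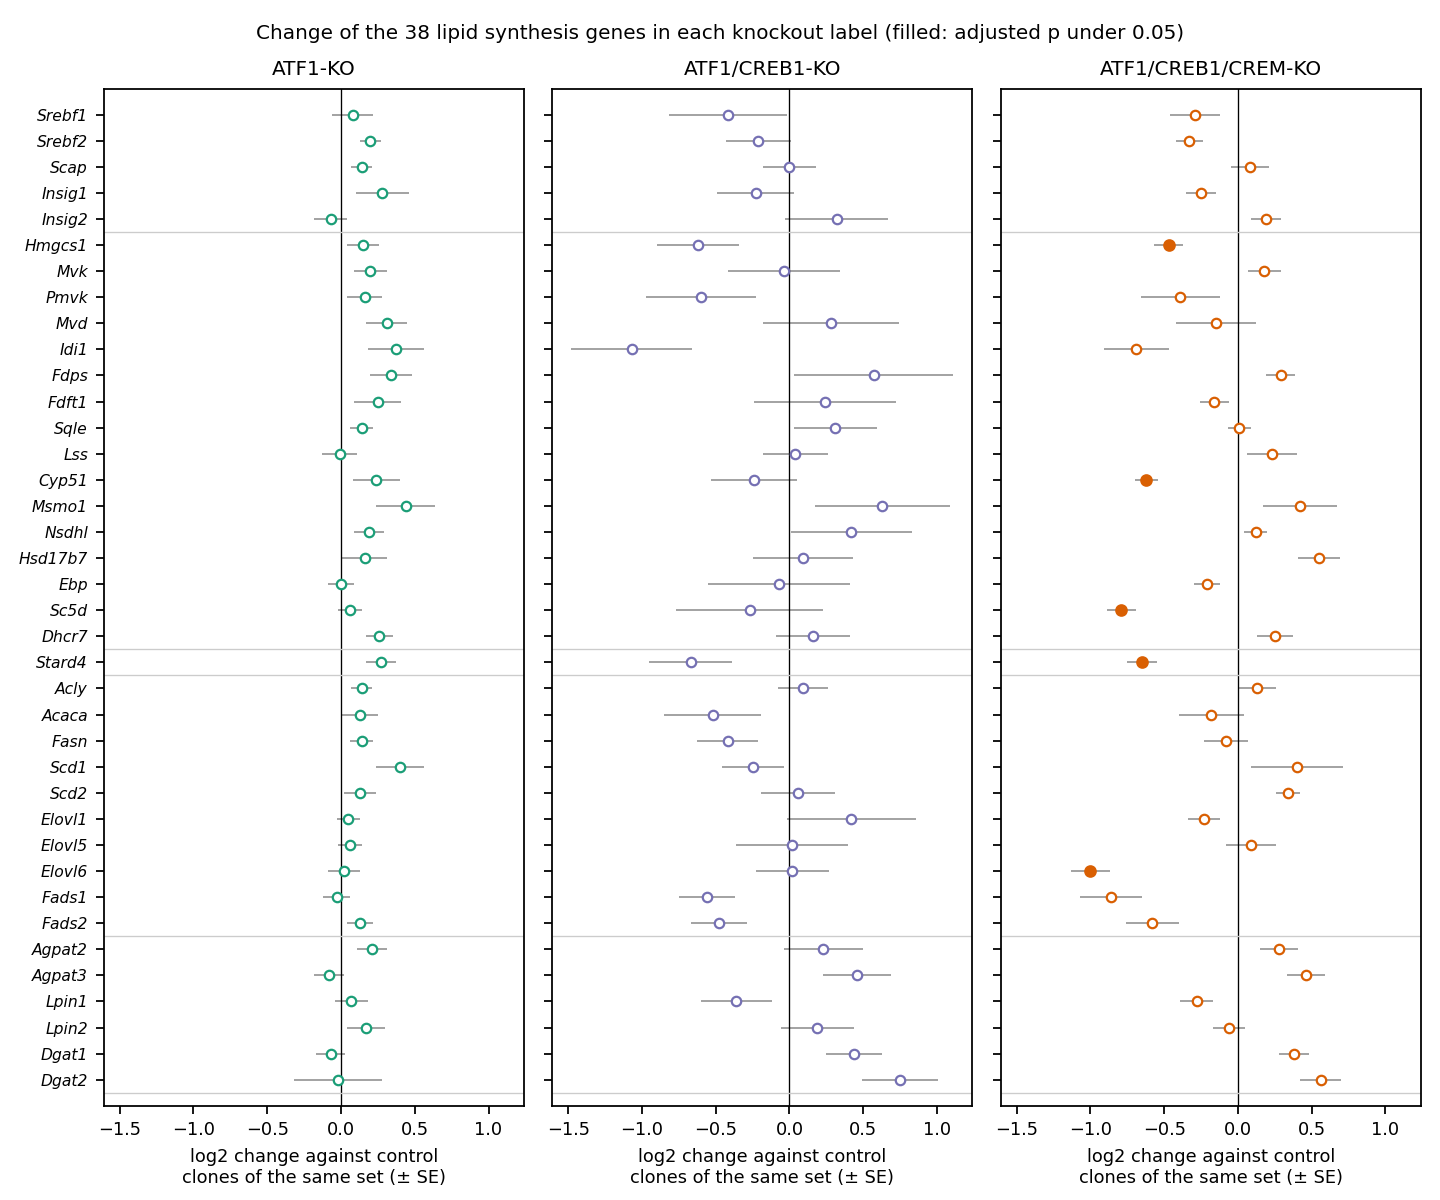
Log2 change of each of the 38 genes, on the log2(TPM + 1) scale, in the 3 knockout labels against control clones of the same set, 1 panel per label, with bars of 1 standard error. Filled points have an adjusted p under 0.05. They are Elovl6, Sc5d, Stard4, Cyp51 and Hmgcs1 in the ATF1/CREB1/CREM-KO panel, and the panel of ATF1/CREB1-KO has the widest bars.

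None of the 5 regulators was called there, although Srebf2 was called lower when knockout replicate 1 was left out. That fit rests on knockout replicates 2 and 3, whose independence was not tested. Srebf2, whose product drives mainly the cholesterol genes, was at 120.0, 118 and 124 TPM in control clones 9 to 11 and 85.5, 103 and 99.2 TPM in the 3 knockout libraries. The 2 groups did not overlap, and the log2 change of -0.33 (SE 0.09) had an adjusted p of 0.075. Srebf1, whose product drives mainly the fatty acid genes, was at 117, 120.3 and 116 TPM in control clones 9 to 11 and 73.0, 117 and 103 TPM in the 3 knockout libraries. Replicate 2 lay among the control clones and replicate 1 far below them, so the change of -0.29 (SE 0.17) had an adjusted p of 0.31. Insig1, which anchors SCAP and is itself a target of SREBP, was at 57.6, 48.7 and 48.6 TPM in control clones 9 to 11 and 43.9, 41.1 and 44.4 TPM in the 3 knockout libraries. It was lower in every knockout library, by 0.25 on the log2 scale (adjusted p = 0.171). Insig2, the second anchor, went the other way, at 57.8, 53.7 and 53.2 TPM in control clones 9 to 11 and 60.0, 70.0 and 58.7 TPM in the 3 knockout libraries. Its ranges did not overlap either, with a log2 change of 0.19 (adjusted p = 0.267). Scap, the escort itself, was at 41.8, 53.8 and 40.5 TPM in control clones 9 to 11 and 49.9, 46.1 and 46.6 TPM in the 3 knockout libraries. The knockout values lay within the control range and the log2 change was 0.08 (SE 0.13).

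In the cholesterol route, 3 of 16 enzymes were called, all lower, and 8 genes lay on each side of 0. Hmgcs1, the synthase that makes HMG-CoA at the start of the pathway, was at 165, 149.8 and 147 TPM in control clones 9 to 11 and 126, 102 and 106 TPM in the 3 knockout libraries. Every knockout library lay below every control clone. The mean fell from 154 ± 9.42 to 112 ± 12.7 TPM (SD, n = 3 each), a log2 change of -0.47 (SE 0.10, adjusted p = 0.0411). Cyp51, the lanosterol demethylase that opens the conversion of lanosterol to cholesterol, was at 115, 108 and 114 TPM in control clones 9 to 11 and 77.5, 69.2 and 70.9 TPM in the 3 knockout libraries. The knockout libraries were close to each other and well below the lowest control clone. The log2 change was -0.62 (SE 0.08, adjusted p = 0.0086). Sc5d, a sterol desaturase of the late pathway, was at 127, 116 and 121 TPM in control clones 9 to 11 and 77.3, 63.1 and 69.0 TPM in the 3 knockout libraries. Here too the groups did not overlap, and the mean was 57.7% of the control mean (log2 change -0.79, SE 0.10, adjusted p = 0.00777).

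Other steps of the same route were not called. Idi1 was at 34.4, 27.1 and 37.3 TPM in control clones 9 to 11 and 27.5, 15.6 and 18.3 TPM in the 3 knockout libraries, with 1 knockout library inside the control range and a log2 change of -0.69 (SE 0.22, adjusted p = 0.106). Sqle, the squalene epoxidase and like HMG-CoA synthase a classic SREBP target, had a log2 change of 0.01 (SE 0.08, adjusted p = 0.959). Fdps was higher in every knockout library, at 355, 329 and 389 TPM in control clones 9 to 11 and 483, 422 and 407 TPM in the 3 knockout libraries, a log2 change of 0.29 (SE 0.10, adjusted p = 0.128). Msmo1 was at 327, 279 and 297 TPM in control clones 9 to 11 and 617, 323 and 326 TPM in the 3 knockout libraries. Its mean was raised mostly by replicate 1, and the log2 change of 0.42 had an SE of 0.25 and an adjusted p of 0.33. Hsd17b7, which acts in the same demethylation steps as Msmo1, was at 10.5, 12.8 and 13.4 TPM in control clones 9 to 11 and 19.9, 16.0 and 19.5 TPM in the 3 knockout libraries, without overlap, and its log2 change of 0.55 (SE 0.14) had an adjusted p of 0.0614. Under rescaling of the libraries by median ratios or by quantiles Hsd17b7 was called higher. The other 8 cholesterol genes (Mvk, Pmvk, Mvd, Fdft1, Lss, Nsdhl, Ebp and Dhcr7) had log2 changes between -0.39 for Pmvk and 0.25 for Dhcr7, with none called.

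Stard4, a soluble carrier that moves cholesterol between membranes and an SREBP target, was the only sterol transport gene of the list. Its levels were 39.5, 33.9 and 35.7 TPM in control clones 9 to 11 and 21.7, 23.1 and 23.7 TPM in the 3 knockout libraries. The knockout libraries were close to each other, and all lay below the lowest control clone. The mean fell from 36.4 ± 2.83 to 22.8 ± 1.02 TPM (SD, n = 3 each), a log2 change of -0.65 (SE 0.10, adjusted p = 0.0146). Stard4 lies on chromosome 18 (GENCODE M21). The median log2 difference of all tested genes of that chromosome, relative to all genes, was 0.04, 0.47 and 0.47 in the 3 knockout libraries, in replicates 2 and 3 the opposite direction to Stard4. For chromosomes 3, 5, 9, 13 and 19, which hold the other called genes and the Fads genes, this shift was between -0.05 and 0.04. It was larger on chromosomes of some other members: -0.26 and -0.27 in replicate 1 for chromosomes 11 and 15 (among others Srebf1 and Srebf2) and 0.21 for chromosome 8 (Msmo1), and -0.52 and -0.5 in replicates 2 and 3 for chromosome 14 (Fdft1). On chromosome 17 (Lpin2) it was 0.21 to 0.28 in all 3. Replicates 2 and 3 were alike on chromosomes 14, 17 and 18, where ATF1/CREB1-KO replicate 2 had -0.44, 0.21 and 0.44. On chromosomes 12 and 15 that library had -0.24 and 0.25, against -0.06 to 0.02 in replicates 2 and 3. On chromosomes 11, 15 and 17 replicate 1 had -0.26, -0.27 and 0.28, and ATF1/CREB1-KO replicate 1 had -0.25, -0.01 and 0.32. Whether these libraries are independent of each other was not tested. The part of these shifts in the members' values was not tested.

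Of the 10 genes for fatty acids, 1 was called. Elovl6, the elongase that lengthens palmitate to stearate and a target of SREBP, was at 89.3, 78.8 and 93.1 TPM in control clones 9 to 11 and 36.7, 47.9 and 45.2 TPM in the 3 knockout libraries. The highest knockout library lay well below the lowest control clone. The mean fell from 87.1 ± 7.41 to 43.2 ± 5.82 TPM (SD, n = 3 each), a log2 change of -1.0 (SE 0.13, adjusted p = 0.00815), the largest decrease among the 38 genes.

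The FADS pair, which lies on chromosome 19, was lower without passing the test. Fads1 was at 387, 382 and 376 TPM in control clones 9 to 11 and 145, 247 and 259 TPM in the 3 knockout libraries. Replicate 1 was far below the other knockout libraries, which themselves lay below every control clone, and the log2 change of -0.86 (SE 0.21) had an adjusted p of 0.055. Fads2 was at 551, 532 and 585 TPM in control clones 9 to 11 and 278, 437 and 423 TPM in the 3 knockout libraries. It showed the same low replicate 1 and a log2 change of -0.58 (SE 0.18, adjusted p = 0.0915). Without replicate 1 both were called, Fads1 at -0.59 (adjusted p = 0.00142) and Fads2 at -0.37 (adjusted p = 0.0106). That fit rests on replicates 2 and 3, which had like shifts on whole chromosomes. Whether they are independent was not tested, so these p-values may be too small.

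The enzymes that build the fatty acid chain were not called either. The fatty acid synthase gene Fasn had a log2 change of -0.08 (SE 0.15, adjusted p = 0.761) and Acly, the citrate lyase that supplies acetyl-CoA, one of 0.13 (SE 0.13). Scd2 was at 713, 625 and 698 TPM in control clones 9 to 11 and 823, 864 and 879 TPM in the 3 knockout libraries, higher in every knockout library, with a log2 change of 0.34 (SE 0.08, adjusted p = 0.0512). Its relative Scd1 had a log2 change of 0.40 with an SE of 0.31. The carboxylase gene Acaca and the elongase genes Elovl1 and Elovl5 lay between -0.23 and 0.09.

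**Figure D3:**
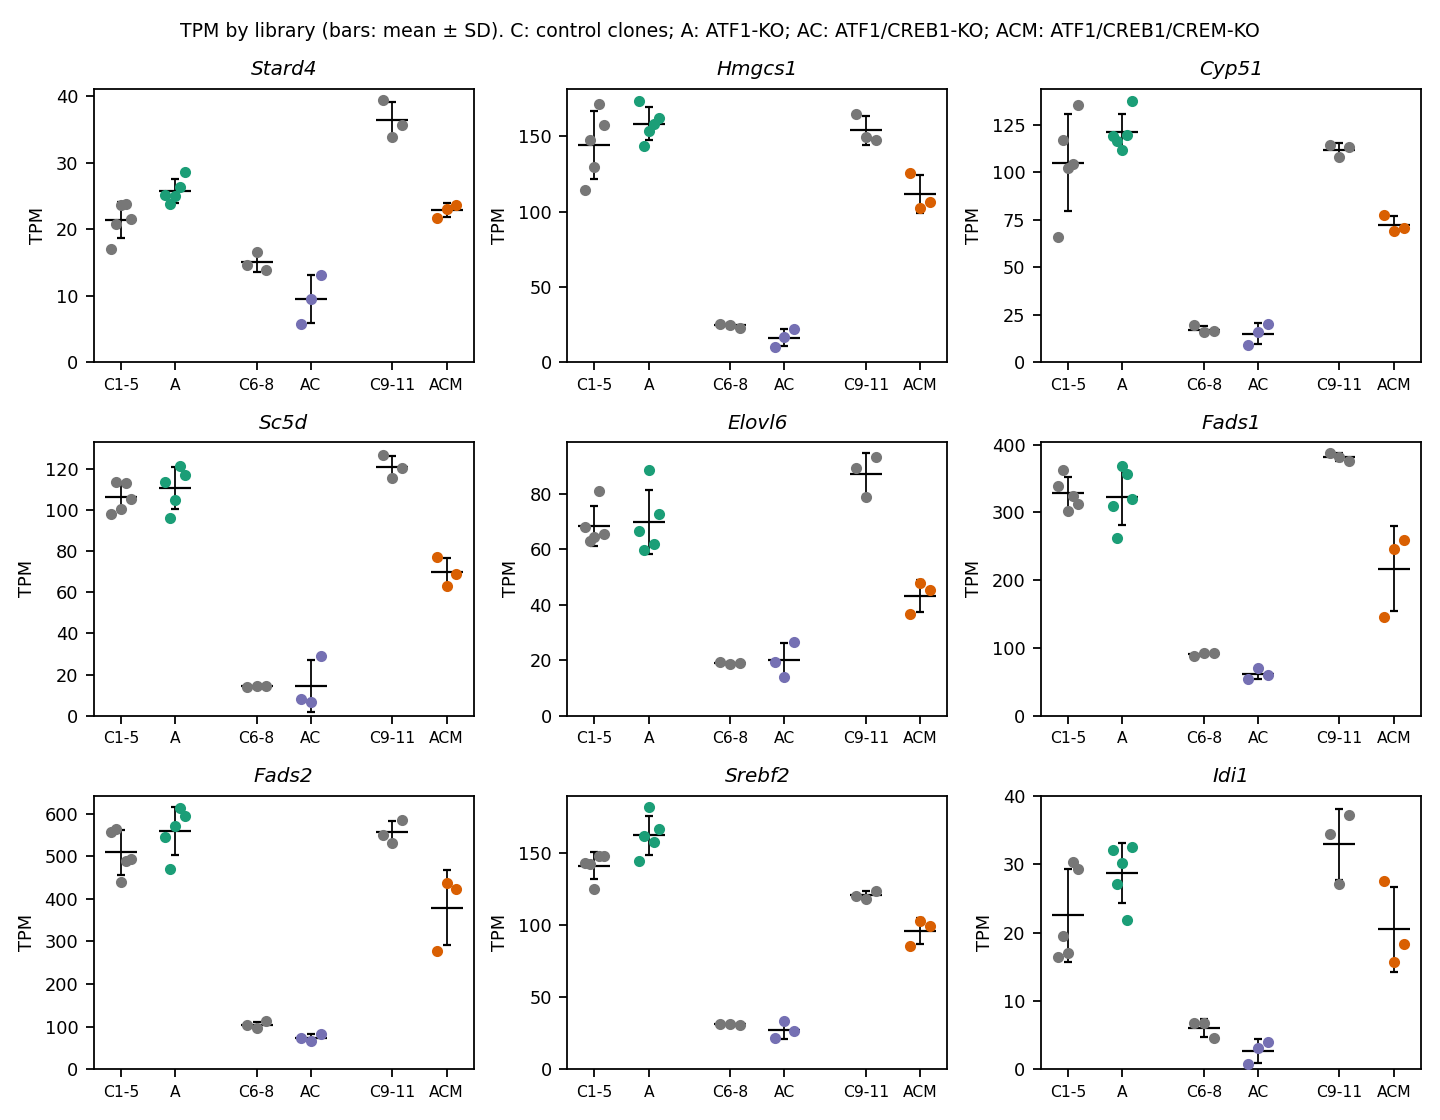
TPM of 9 genes in each of the 22 libraries, with the mean and SD of each group beside the points and C for control clones, A for ATF1-KO, AC for ATF1/CREB1-KO and ACM for ATF1/CREB1/CREM-KO. In set 3 the points of Stard4, Hmgcs1, Cyp51, Sc5d and Elovl6 separate fully from their control clones, and for Fads1 the low ACM point is replicate 1 at 145 TPM.

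For glycerolipids the direction was mostly the other one, with 4 of 6 genes above 0, a median of 0.33 and no call. Dgat1 and Dgat2 encode the acyltransferases that complete triglycerides. Dgat2 was at 22.2, 26.8 and 20.9 TPM in control clones 9 to 11 and 31.3, 33.3 and 39.8 TPM in the 3 knockout libraries, a log2 change of 0.56 (SE 0.14, adjusted p = 0.0545). Dgat1 was at 47.4, 57.8 and 53.2 TPM in control clones 9 to 11 and 64.3, 72.9 and 70.2 TPM in the 3 knockout libraries, a log2 change of 0.38 (SE 0.10, adjusted p = 0.0679). Agpat3, an acyltransferase that makes phosphatidic acid, was at 179.6, 181 and 187 TPM in control clones 9 to 11 and 207, 272 and 285 TPM in the 3 knockout libraries, with 0.46 (SE 0.13, adjusted p = 0.0712). All 3 were above every control clone. Lpin1, a phosphatidate phosphatase, was lower by 0.28 on the log2 scale (adjusted p = 0.165), Agpat2 was higher by 0.28 (adjusted p = 0.225), and Lpin2 had a log2 change of -0.06.

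Single libraries moved these counts. Without control clone 9 none of the 38 genes was called, and the adjusted p-values of the 5 became 0.0543 for Elovl6, 0.054 for Sc5d, 0.0599 for Cyp51, 0.075 for Stard4 and 0.155 for Hmgcs1. With control clone 9 left out, 185 of 13234 genes were still called. Without control clone 11, 2 members remained (Elovl6 and Sc5d), beside 280 of 13237 genes. Without knockout replicate 2 or 3 the 3 genes Cyp51, Elovl6 and Sc5d remained, beside 343 of 13251 and 406 of 13234 genes. Without knockout replicate 1, 16 were called, 12 lower and 4 higher (Agpat3, Dgat1, Dgat2 and Scd2), beside 3317 of all genes in place of 1216. The 12 lower were the 5 above with Elovl1, Fads1, Fads2, Fdft1, Idi1, Mvd and the regulator Srebf2. Replicate 1 was the highest of the 3 for 12 of the 16 cholesterol genes. The fit without it rests on replicates 2 and 3, which had like shifts on whole chromosomes. Their independence was not tested, so the p-values of that fit may be too small and its calls too many. The log2 changes themselves moved little: over all alternatives Elovl6 ranged from -1.07 to -0.89, Sc5d from -0.86 to -0.72, Stard4 from -0.69 to -0.58, Cyp51 from -0.67 to -0.58 and Hmgcs1 from -0.56 to -0.41. In a fit over all 22 libraries with the set as a covariate, 4 were called, all lower, beside 5.12% of genes called lower: Elovl6 (adjusted p = 0.00118), Fads1 (0.00273), Fads2 (0.0214) and Stard4 (0.0304). There the adjusted p was 0.138 for Hmgcs1, 0.0971 for Cyp51 and 0.126 for Sc5d. Mitochondrial genes took 2.06% to 2.63% of TPM in these knockout libraries against 1.21% to 1.42% in their control clones, and Lrp2, the 1 proximal tubule marker of 5 above 1 TPM, was at 21.5, 19.8 and 19.9 TPM in control clones 9 to 11 and 25.2, 1.10 and 1.66 TPM in the 3 knockout libraries, so that replicate 1 stood apart there as well. The part of either in the changes was not tested.

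Promoters of 4 of the 5 called genes, all but Stard4, are shown because these members fell together and because their products belong to a pathway with known DNA motifs. RefSeq sequences (GRCm38.p6), 250 bases before to 50 after the start, were present for 29 of the 38 genes, as 40 promoters. The letters searched on both strands were TGACGTCA (the cAMP response element), TGACG (its core, which every full element also holds), TCACNCCAC (a sterol regulatory element) and CCAAT (the NF-Y box). Capitals mark every match, so that CGTCA and ATTGG are matches on the other strand. The promoters lie at chr13:119690101-119690400 (plus strand) for Hmgcs1, chr5:4104648-4104947 (minus strand) for Cyp51, chr9:42264251-42264550 (minus strand) for Sc5d and chr3:129532136-129532435 (plus strand) for Elovl6.
Hmgcs1: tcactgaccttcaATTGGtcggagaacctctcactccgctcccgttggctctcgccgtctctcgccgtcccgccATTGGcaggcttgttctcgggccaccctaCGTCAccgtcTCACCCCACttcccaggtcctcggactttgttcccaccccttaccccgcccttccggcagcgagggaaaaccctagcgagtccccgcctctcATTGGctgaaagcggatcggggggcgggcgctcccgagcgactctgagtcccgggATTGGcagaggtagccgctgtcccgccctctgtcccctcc
Cyp51: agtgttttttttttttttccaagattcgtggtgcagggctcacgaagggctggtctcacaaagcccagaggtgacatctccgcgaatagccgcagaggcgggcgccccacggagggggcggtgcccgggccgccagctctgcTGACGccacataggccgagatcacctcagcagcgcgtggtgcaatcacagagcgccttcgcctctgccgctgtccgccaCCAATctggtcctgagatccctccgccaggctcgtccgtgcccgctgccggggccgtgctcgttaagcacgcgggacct
Sc5d: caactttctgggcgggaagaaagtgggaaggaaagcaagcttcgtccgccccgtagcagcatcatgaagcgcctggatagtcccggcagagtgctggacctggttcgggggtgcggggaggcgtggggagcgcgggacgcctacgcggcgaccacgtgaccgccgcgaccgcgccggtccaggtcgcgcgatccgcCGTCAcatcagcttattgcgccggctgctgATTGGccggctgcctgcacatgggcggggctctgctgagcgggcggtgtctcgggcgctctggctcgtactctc
Elovl6: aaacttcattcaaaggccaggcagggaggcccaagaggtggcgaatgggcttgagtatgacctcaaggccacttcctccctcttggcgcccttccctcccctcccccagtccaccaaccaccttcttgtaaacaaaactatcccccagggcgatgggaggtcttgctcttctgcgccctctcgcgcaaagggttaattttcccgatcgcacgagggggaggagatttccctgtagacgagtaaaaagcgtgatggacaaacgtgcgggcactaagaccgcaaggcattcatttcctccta

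The promoter of Hmgcs1 holds a sterol element 137 bases upstream of the start, a core of the cAMP response element 147 bases upstream and 4 NF-Y boxes. Cyp51 has a core element 108 bases and an NF-Y box 29 bases upstream, and Sc5d has them at 54 and 24 bases. None of these letters occurs in the Elovl6 window. Over the members, NF-Y boxes stood in 23 of 40 promoters (57.5%) against 37.4% of the 32851 promoters of the table. The core element stood in 11 (27.5%) against 20.8%, the full element in 1 (2.5%, that of Elovl5) against 1.79%, and the sterol element in 1 (2.5%, that of Hmgcs1) against 1.24%. Core elements occurred as well in members that were not called, such as Ebp, Nsdhl and Srebf2. These matches describe letters and not binding.

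In the libraries labelled ATF1/CREB1-KO no member was called. The limma test called 0 of 38, beside 0.0715% of the 12579 genes tested, and 5 members had an unadjusted p under 0.05 (13.2%, against 9.53% of all genes). Those 5 were Fads1, Fads2, Idi1 and Stard4, all lower, and Dgat2, higher. The groups did not overlap for 3 higher genes (7.89%, against 6.67%) and 6 lower genes (15.8%, against 12.4%), shares close to the background. Of the members, 20 were above 0 (52.6%, against 46.9%) and 18 below, with a median of 0.02.

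Replicate 3 of this label set much of that spread. It was above every control clone for 14 of the 16 cholesterol genes, with a median difference of 0.82 on the log2 scale, while replicate 1 was below every control clone for 15 of them, with a median of -0.55, and replicate 2 had -0.09. Fdps shows the pattern at 149, 141 and 161 TPM in control clones 6 to 8 and 114, 175 and 558 TPM in the 3 knockout libraries. Sc5d, one of the genes that fell in ATF1/CREB1/CREM-KO, was at 13.8, 14.3 and 14.6 TPM in control clones 6 to 8 and 8.09, 6.41 and 29.2 TPM in the 3 knockout libraries, so that 2 libraries lay below the control clones and the third far above. Msmo1 was at 52.8, 48.2 and 49.1 TPM in control clones 6 to 8 and 45.9, 60.0 and 169.7 TPM in the 3 knockout libraries. All 3 knockout libraries had a lower ribosomal protein share (7.05% to 13.0%) than their control clones (14.2% to 15.1%), lowest in replicate 3, and a higher mitochondrial share (3.2% to 4.31% against 2.08% to 2.33%). The part of these shares in the values was not tested. With replicate 3 left out, 9 of 38 members were above 0 and the median of the 38 was -0.21, and still none was called.

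In 6 of the 38 genes all 3 knockout libraries lay below every control clone: Fads1, Fads2, Fasn, Hmgcs1, Idi1 and Stard4. Stard4 was at 14.6, 16.5 and 13.8 TPM in control clones 6 to 8 and 5.79, 9.56 and 13.0 TPM in the 3 knockout libraries, below every control clone in all 3 (log2 change -0.67, unadjusted p = 0.0472). Without replicate 1, the lowest, the change was -0.39 (SE 0.21) and was not called. With the set as a covariate over all 22 libraries, 1 spread per gene was shared by all 6 groups. ATF1/CREB1-KO had the widest bars of the 3 labels, so the shared spread may be too small for it. That fit called 609 of all genes for this label, against 9 in its own set. There 3.11% of genes were called lower, and Stard4 was the 1 member called (SE 0.18, adjusted p = 0.0382). Fads1 was at 87.9, 93.1 and 92.4 TPM in control clones 6 to 8 and 54.5, 70.1 and 60.3 TPM in the 3 knockout libraries, again all lower (log2 change -0.56, unadjusted p = 0.0215, adjusted p with the covariate 0.0599). Fads2 was at 103, 95.9 and 112 TPM in control clones 6 to 8 and 73.5, 66.2 and 82.9 TPM in the 3 knockout libraries, also all lower (log2 change -0.48, unadjusted p = 0.0417). In both FADS genes the highest knockout library lay clear of the lowest control clone. Hmgcs1 was at 25.6, 24.7 and 22.8 TPM in control clones 6 to 8 and 10.3, 16.6 and 21.7 TPM in the 3 knockout libraries, lower by 0.62 on the log2 scale (SE 0.28). Idi1, at 6.74, 6.80 and 4.52 TPM in control clones 6 to 8 and 0.70, 3.17 and 4.04 TPM in the 3 knockout libraries, had the lowest log2 change of the 38 genes in this label (-1.07, unadjusted p = 0.0349).

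Elovl6 and Cyp51, both called in the other label, did not separate here. Elovl6 was at 19.3, 18.5 and 19.1 TPM in control clones 6 to 8 and 19.3, 13.9 and 26.6 TPM in the 3 knockout libraries (log2 change 0.02, SE 0.25). Replicate 3 was above every control clone and replicate 2 below. Cyp51 was at 19.4, 15.9 and 16.2 TPM in control clones 6 to 8 and 9.11, 15.8 and 20.0 TPM in the 3 knockout libraries (log2 change -0.24, SE 0.29). The regulators overlapped their control clones as well. Srebf1 was at 109, 84.4 and 74.8 TPM in control clones 6 to 8 and 66.3, 113 and 37.2 TPM in the 3 knockout libraries. For Srebf2 the values were 31.7, 31.3 and 30.8 TPM in control clones 6 to 8 and 21.6, 33.4 and 26.8 TPM in the 3 knockout libraries. In both genes the highest knockout library was above every control clone and the lowest was below all of them. Insig1 was at 12.4, 15.3 and 14.4 TPM in control clones 6 to 8 and 7.79, 13.9 and 14.8 TPM in the 3 knockout libraries. Insig2 was at 16.9, 14.7 and 15.0 TPM in control clones 6 to 8 and 18.3, 12.0 and 33.9 TPM in the 3 knockout libraries, with replicate 3 far above the rest. Scap was at 12.7, 13.4 and 12.0 TPM in control clones 6 to 8 and 14.1, 13.4 and 10.7 TPM in the 3 knockout libraries, spread around the control values. Their log2 changes ran from -0.42 for Srebf1 to 0.32 for Insig2, with SEs of 0.18 to 0.40. Of the glycerolipid genes, Agpat3, Dgat1 and Dgat2 were above every control clone, as in ATF1/CREB1/CREM-KO, with log2 changes of 0.46, 0.44 and 0.75 and none called. The control clones of the 2 labels are different libraries. Some knockout libraries of the 2 labels had like shifts on whole chromosomes, and their independence was not tested.

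**Figure D4:**
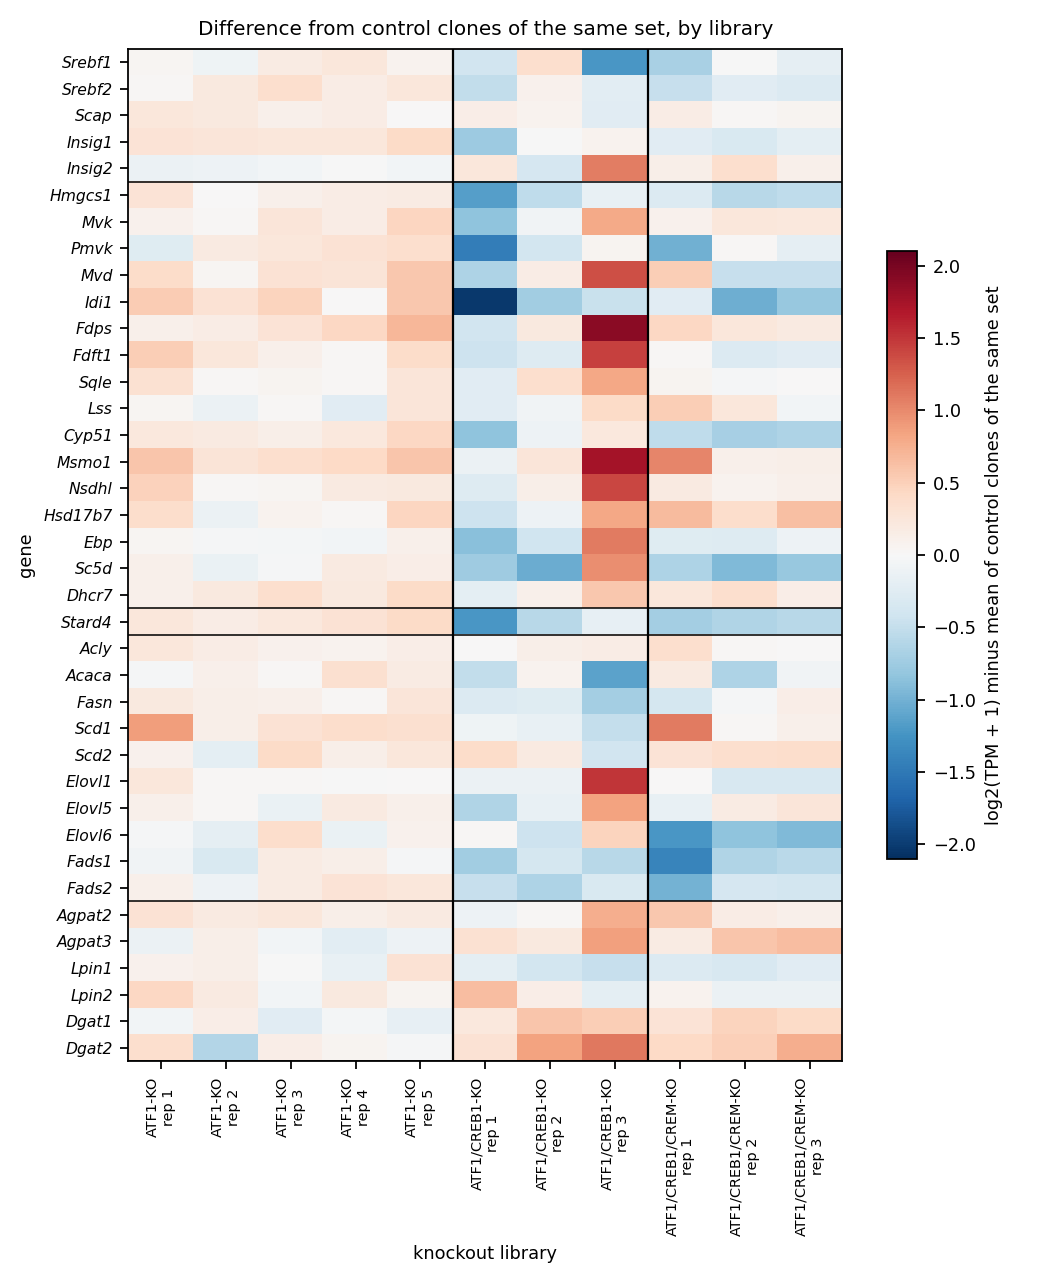
Difference of log2(TPM + 1) from the mean of the control clones of the same set, for the 38 genes (vertical) and the 11 knockout libraries (horizontal), with lines between gene groups and labels. ATF1/CREB1-KO replicate 3 is higher across the cholesterol genes (median 0.82) where replicate 1 is lower (median -0.55), and the ATF1-KO columns are pale.

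The libraries labelled ATF1-KO, with 5 against 5 the comparison with most replicates, gave no call for any gene. The limma test called 0 of 38 members, beside 0.0% of the 13318 genes tested, and 7 members had an unadjusted p under 0.05 (18.4%, against 7.61% of all genes). All 7 were higher: Dhcr7, Stard4, Srebf2, Scd1, Fdps, Mvd and Msmo1, by 0.20 to 0.44 on the log2 scale, with adjusted p-values of 0.608 to 0.656. With the set as a covariate no member had an unadjusted p under 0.05, against 5.13% of all genes. No member separated the groups without overlap, against 0.563% of all genes that did so as higher and 0.736% as lower.

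The direction was nevertheless shared, with 32 of 38 members above 0 (84.2%, against 49.0% of all genes) and a median log2 change of 0.14 against 0.0. This held for 15 of 16 cholesterol genes (median 0.19) and 9 of 10 fatty acid genes (median 0.13), and for 3 of 6 glycerolipid genes (median 0.03). The medians of the 5 knockout libraries taken singly lay between 0.11 and 0.23. Without control clone 1, which was low for most cholesterol genes, 33 members were above 0 and the median was 0.10. The members vary together between clones (control clone 1 was below the other 4 for 17 of 38), so these counts are not independent observations.

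Dhcr7, a reductase at the end of cholesterol synthesis, had the smallest unadjusted p of the members (0.0145, log2 change 0.26). Srebf2 was at 143, 143, 125, 148 and 148 TPM in control clones 1 to 5 and 145, 162, 182, 158 and 167 TPM in the 5 knockout libraries, with 4 of 5 knockout libraries above every control clone and a log2 change of 0.20 (SE 0.07). Stard4 was at 17.0, 20.8, 23.7, 23.8 and 21.6 TPM in control clones 1 to 5 and 25.2, 23.8, 24.9, 26.4 and 28.6 TPM in the 5 knockout libraries, higher by 0.27 (SE 0.10). Its lowest knockout library lay just under the highest control clone. Srebf1 was at 124, 128, 102, 185 and 143 TPM in control clones 1 to 5 and 138, 125, 152, 157 and 141 TPM in the 5 knockout libraries, with a wide spread in the control clones and a log2 change of 0.08. Scap was at 46.1, 54.0, 46.9, 46.9 and 48.0 TPM in control clones 1 to 5 and 56.6, 56.2, 51.9, 54.1 and 48.5 TPM in the 5 knockout libraries, a log2 change of 0.14 (SE 0.07). In 3 of its knockout libraries Scap exceeded every control clone, the highest of which was clone 2. Insig1 was at 27.4, 54.7, 41.3, 56.0 and 60.9 TPM in control clones 1 to 5 and 56.6, 55.2, 54.7, 54.9 and 61.3 TPM in the 5 knockout libraries. It had 1 low control clone, clone 1, and a log2 change of 0.28 (SE 0.18). Insig2 was at 57.5, 57.7, 72.8, 61.2 and 45.0 TPM in control clones 1 to 5 and 53.4, 53.8, 55.9, 57.6 and 55.7 TPM in the 5 knockout libraries, the only regulator below 0, at -0.07.

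The genes called in ATF1/CREB1/CREM-KO, and the FADS pair, overlapped their control clones in ATF1-KO. Elovl6 was at 68.0, 63.1, 64.3, 81.0 and 65.6 TPM in control clones 1 to 5 and 66.7, 59.6, 88.6, 61.7 and 72.6 TPM in the 5 knockout libraries, a log2 change of 0.02 (SE 0.11). Fads1 was at 339, 363, 301, 324 and 312 TPM in control clones 1 to 5 and 309.9, 262, 369, 357 and 320.2 TPM in the 5 knockout libraries, and its change of -0.03 had an SE of 0.09. Fads2 was at 557, 565, 440.1, 489 and 493 TPM in control clones 1 to 5 and 546, 469, 570.0, 614 and 593 TPM in the 5 knockout libraries, with 0.13 (SE 0.09). In these 3 genes of fatty acid modification high and low libraries occurred in both groups. Hmgcs1 was at 114, 148, 129.6, 172 and 158 TPM in control clones 1 to 5 and 174, 144, 153, 158 and 162 TPM in the 5 knockout libraries, with 0.15 (SE 0.11). For Cyp51 the values were 65.7, 117, 102, 105 and 136 TPM in control clones 1 to 5 and 119, 117, 112, 119.8 and 138 TPM in the 5 knockout libraries, control clone 1 being the lowest by far (log2 change 0.24, SE 0.16). Sc5d was at 98.2, 114, 101, 113 and 105 TPM in control clones 1 to 5 and 114, 96.2, 105, 122 and 117 TPM in the 5 knockout libraries, with 0.06 (SE 0.08).

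Differences between the labels were tested as contrasts of these changes in 1 limma fit over the 22 libraries, 13295 genes. In that fit all groups share 1 spread per gene, which may be too small for ATF1/CREB1-KO. ATF1/CREB1/CREM-KO minus ATF1-KO called 4 of 38 members, all lower, beside 2.53% of all genes called lower. They were Elovl6 with a difference of -1.02 (SE 0.23, adjusted p = 0.0153), Stard4 with -0.91 (SE 0.23, adjusted p = 0.0304), Fads1 with -0.83 (SE 0.21, adjusted p = 0.0348) and Fads2 with -0.71 (SE 0.19, adjusted p = 0.0454). Elovl6 was called under all 27 alternatives run (adjusted p 0.00209 to 0.0487), while the call was lost for Stard4 in 8, for Fads1 in 12 and for Fads2 in 17 of 27. Srebf2 was called lower in this contrast when ATF1/CREB1-KO replicate 1, 2 or 3 was left out. For ATF1/CREB1-KO minus ATF1-KO, 1 of 38 was called, beside 1.08% of all genes called lower. This was Stard4, with a difference of -0.94 (SE 0.23, 95% interval -1.41 to -0.46, adjusted p = 0.045), a call lost under 18 of 27 alternatives. Both differences use the same ATF1-KO libraries and control clones 1 to 5.

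Between ATF1/CREB1/CREM-KO and ATF1/CREB1-KO 0 of 38 members were called in limma, beside 0.188% of all genes, and 1 member, Elovl6, had an unadjusted p under 0.05 (2.63%, against 8.39%). Its difference was -1.02 (95% interval -1.55 to -0.49, adjusted p = 0.172). For Stard4 the difference was 0.02, with an interval of -0.51 to 0.56 on the log2 scale, which leaves room for a difference in either direction. For Fads1 it was -0.29 (-0.79 to 0.21).

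Other genes of the pathway were read from 4 lists of 74 genes. Among the genes of sterol sensing and handling, of which 18 were tested in ATF1/CREB1/CREM-KO, none was called lower against the control clones of its set. Npc1 and Lipa, which release cholesterol from lysosomes, rose by 0.85 (adjusted p = 0.0225) and 0.63 (adjusted p = 0.0178) on the log2 scale. Each was called under 6 of 12 alternatives and in 1 of the 6 fits that left out a library. None of the 6 other cholesterol synthesis genes was called by limma, and none had an unadjusted p under 0.05.

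Among 19 other fatty acid genes, 2 were higher and 1 lower, beside 3.91% of all genes called higher and 5.26% called lower. Acss2, which makes acetyl-CoA from acetate, was at 7.45, 10.8 and 7.64 TPM in control clones 9 to 11 and 18.7, 22.4 and 19.9 TPM in the 3 knockout libraries. The groups were far apart (log2 change 1.16, SE 0.17, adjusted p = 0.011), and the call was lost without control clone 9, control clone 11 or knockout replicate 2. Hsd17b12, an enzyme of the elongation cycle, rose by 0.49 (adjusted p = 0.0281) and Mcat, of mitochondrial fatty acid synthesis, fell by 0.45 (adjusted p = 0.047). These were called under 5 and 4 of 12 alternatives.

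Among 16 other glycerolipid genes, Gpam changed most. GPAM is the mitochondrial acyltransferase that begins glycerolipid synthesis, and its gene is an SREBP target. It was at 27.1, 24.5 and 23.1 TPM in control clones 9 to 11 and 0.07, 0.51 and 0.54 TPM in the 3 knockout libraries. The mean was 24.9 against 0.373 TPM, and no knockout library reached 1 TPM (log2 change -4.25, SE 0.20, adjusted p = 0.000413), and it was called under all 12 alternatives. In ATF1/CREB1-KO Gpam was at 4.26, 3.73 and 2.87 TPM in control clones 6 to 8 and 0.12, 0.66 and 0.15 TPM in the 3 knockout libraries, all 3 below every control clone. Its log2 change was -1.83 (adjusted p = 0.105, or 1.52e-06 with the set as a covariate and a spread shared by all sets). In ATF1-KO it was at 21.8, 21.8, 23.8, 22.3 and 21.6 TPM in control clones 1 to 5 and 24.6, 22.2, 25.6, 22.2 and 20.0 TPM in the 5 knockout libraries, where the ranges overlapped. The difference from ATF1-KO was -4.29 (adjusted p = 1.43e-10) for ATF1/CREB1/CREM-KO and -1.87 (adjusted p = 6.32e-05) for ATF1/CREB1-KO. The sizes for these labels are not comparable, because the control level of Gpam in set 2 is low and limits the fall on the log2(TPM + 1) scale. Plin2, which coats lipid droplets, rose by 0.43 (adjusted p = 0.0241), a call kept under 6 of 12 alternatives.

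In ATF1-KO and ATF1/CREB1-KO no gene of the 4 lists was called against its own control clones. With the set as a covariate, where 1.47% of all genes were called higher and 3.11% lower, 6 genes were called in ATF1/CREB1-KO. The spread shared by all sets in that fit may be too small for this label. Npc1, Soat1 and Rnf139, of 18 tested for sterol sensing and handling, and Acsl3, of 19 other fatty acid genes, were higher, by 0.69, 0.70, 0.46 and 0.88 on the log2 scale. Gpam and Lclat1, of 16 other glycerolipid genes, were lower, Lclat1 by 1.03. The same fit for ATF1/CREB1/CREM-KO, with 2.9% of all genes called higher and 5.12% lower, called Npc1 (adjusted p = 0.00399) and Acss2 (0.000126) higher. It called Mbtps1, a protease that cleaves SREBP in the Golgi, lower (log2 change -0.47, adjusted p = 0.0463), and Gpam, Gpd1 (-1.65, adjusted p = 0.0042) and Lclat1 (-1.2, adjusted p = 0.0082) as well. Abca1, the cholesterol exporter, was listed at 0 in every library.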

How the data were processed

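The deposited values are TPM, made by the authors with RSEM and STAR, per the submitters' processing notes, which give no versions. Genome build and annotation are not given in the sources used here. Each of the 22 columns sums to between 999999.45 and 1000001.0, read depth is not given, and no pair of columns was identical. RNA was amplified as cDNA with a low-input SMARTer kit and sequenced after Nextera XT tagmentation, per the labels' protocols.

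TPM were put on the log2(TPM + 1) scale, which understates changes of low genes, and genes averaging under 1 TPM in the libraries of a comparison were left out. The test was limma (3.58.1, under R 4.3.3), using lmFit followed by eBayes with its trend option. P-values were adjusted by Benjamini-Hochberg across every gene tested, with calls made under 0.05. Tables, promoter searches and figures used Python 3.11.15 with pandas 2.3.3, numpy 2.4.6, scipy 1.17.1 and matplotlib 3.10.9. Chromosomes came from GENCODE M21, matched for 38 of 38 members.

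The 38 members, the 4 pathway lists, the marker lists and the naming rule were chosen with earlier results of these data known. The rule names any member, gives every library for the 5 regulators and for called members, and adds pathway genes called in an own-set fit. Markers of intercalated cells (1 of 7 at 1 TPM, summed 14.4 to 103 TPM per library) were also read. Alternatives were pseudocount 0.1, no filter, a minimum of 5 TPM, median-ratio and quantile scaling, the set as a covariate over 22 libraries, each library left out in turn, and a replicate block for ATF1-KO.

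On data simulated at the real sizes, of 100 genes changed by 1 and 100 changed by 2 on the log2 scale, 77 and 94 were recovered for ATF1-KO (13318 genes), 14 and 68 for ATF1/CREB1-KO (12579 genes), and 54 and 79 for ATF1/CREB1/CREM-KO (13258 genes). False calls were 7, 4 and 6. Each value was drawn independently, with the same spread in both groups. Shifts shared by genes or libraries and unequal spreads were not simulated, so these rates may not hold for the real libraries. Some genes of the pathway are not reported here.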

Additional observations from a re-analysis of the deposited data

Results flagged for a closer look

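Among the 76 groups of 5 libraries tested for a single stray library, 8 had one, where chance gives about 1 in 20. In control clones 1 to 5 these were Srebf2 in clone 3 (125.34 TPM, nearest other 142.74), Scap in clone 2 (53.97, nearest 48.02), Acaca in clone 5 (12.97, nearest 9.73), Elovl6 in clone 4 (81.04, nearest 68.02) and Agpat2 in clone 3 (111.26, nearest 152.35). In ATF1-KO they were Insig1 in replicate 5 (61.28, nearest 56.57), Scd1 in replicate 1 (26.84, nearest 18.56) and Elovl1 in replicate 1 (143.29, nearest 124.43). No gene appeared in both groups.

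The changes differed between labels, by limma contrasts with Benjamini-Hochberg adjustment, for Stard4 (-0.94 for ATF1/CREB1-KO minus ATF1-KO and -0.91 for ATF1/CREB1/CREM-KO minus ATF1-KO), Elovl6 (-1.02), Fads1 (-0.83) and Fads2 (-0.71), the last 3 for ATF1/CREB1/CREM-KO minus ATF1-KO.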

How the results depend on the processing

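The 13 results counted here were calls of members with the main settings or with the set as a covariate. Of their 231 recomputed values, 153 kept their side of the threshold, 72 lost it, 6 gained it and 0 changed sign. Members called only under other alternatives, such as Srebf2 without ATF1/CREB1/CREM-KO replicate 1, are not in this count. Members that were not called did change sign: without ATF1/CREB1-KO replicate 3, only 25 of 38 kept theirs in that label, against 32 or more in every other fit of the 3 comparisons with control clones. For ATF1/CREB1/CREM-KO, 8 members were called with the stricter filter, with median-ratio and with quantile scaling. Beside them 1163 of 10605, 1291 of 13237 and 1307 of 13258 genes were called. With no filter 4 members were called, beside 710 of 23792 genes. For this label the share of calls that were lower was 57.4% as deposited, 46.9% with median-ratio and 46.7% with quantile scaling. For ATF1/CREB1-KO, all genes called were 0 with no filter, 18 with median-ratio scaling and 609 with the covariate, which called 1 member. For ATF1/CREB1-KO minus ATF1-KO, members called were 0 with no filter and 3 with median-ratio scaling, and all genes 120 with no filter, 396 with median-ratio and 330 with quantile scaling. For ATF1/CREB1/CREM-KO minus ATF1-KO, members called were 1 with no filter and 2 with median-ratio scaling, beside 335 of 30901 and 351 of 13441 genes. For ATF1/CREB1/CREM-KO minus ATF1/CREB1-KO, all genes called were 16 with pseudocount 0.1 and 16 with quantile scaling. The cause of these moves was not tested. Leaving out 1 library at a time gave 0 to 1 genes and 0 members for ATF1-KO, 0 to 60 and 0 members for ATF1/CREB1-KO, and 185 to 3317 and 0 to 16 members for ATF1/CREB1/CREM-KO. For the differences it gave 88 to 620 genes and 0 to 6 members (ATF1/CREB1-KO minus ATF1-KO), 273 to 879 and 1 to 8 (ATF1/CREB1/CREM-KO minus ATF1-KO), and 7 to 59 and 0 to 1 (ATF1/CREB1/CREM-KO minus ATF1/CREB1-KO). Control clones 1 to 5 and ATF1-KO share replicate numbers, but same-numbered libraries correlated between -0.103 and 0.0843 over 13318 genes and only numbers 3 and 5 correlated best with their own, so the numbers do not pair them. A replicate block called 0 members and 0 genes. No paired analysis was possible because the other groups share no replicate numbers with the control clones of their set. Depth is unknown, so no counting limit can be given.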
